A study of Mus musculus with 12 samples.

Results

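RAW264.7 is an immortalized Balb/c mouse line with features of monocytes and macrophages, and it forms osteoclasts when given RANKL, the cytokine that drives bone-resorbing cells. In the study all cultures received RANKL, and each was given either culture supernatant of the gut bacterium L. reuteri (treatment) or MEM-alpha medium (vehicle), with RNA taken at days 1, 3 and 5. The question addressed here is what changed between day 3 and day 5 in the libraries numbered replicate 1. These were 4 of the 12 libraries of the series, picked by the day, arm and replicate number in their labels: vehicle at day 3, treatment at day 3, vehicle at day 5 and treatment at day 5. Each arm gave 1 pair of days, so every change below rests on 2 pairs. The labels do not say whether libraries came from separate cultures, and p-values then reflect only how much these libraries vary, which can be technical variation.

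RANKL binds RANK (Tnfrsf11a) on the precursor and, through TRAF6, NF-kB and AP-1, switches on NFATc1, the factor that then drives the osteoclast programme. Under it the cells fuse, and the fused cell secretes acid through the V-ATPase and digests bone with enzymes such as cathepsin K (Ctsk). Factors that keep the cell a macrophage, IRF8 among them, act against this programme and are normally lowered on the way to an osteoclast.

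The 4 libraries held 13812078 to 16265588 gene-assigned reads, as computed back from the deposited table, and 85.2% to 87.6% of these lay on nuclear protein-coding genes. Levels below are normalized counts, that is reads scaled by the authors to a common library total. A change is day 5 minus day 3 on the deposited scale, log2(normalized count + 8), which understates changes of genes with low counts. In bulk RNA, fewer cells of a type and less RNA per cell cannot be told apart. The summed level of 10 macrophage markers was 86626 to 110678 at day 3 and 333440 to 342399 at day 5, so markers of the labelled cell type were high at both days. Without Lyz2, the sums of the other 9 were 38849 and 40094 at day 3 and 57743 and 59992 at day 5, which is 1.49-fold in vehicle and 1.5-fold in treatment, beside 3.95-fold and 3.01-fold with it. The 10 osteoclast markers summed to 13753 to 17437 at day 3 and 3177 to 3502 at day 5, with Calcr at 0 in all 4 libraries. Summed levels in the 4 libraries were 11.7 to 18.8 for fibroblast markers, 45.3 to 103 for osteoblast markers, 14.1 to 33.7 for T cell markers and 271 to 770.2 for dendritic markers. Markers of B cells, neutrophils, endothelium and epithelium summed to at most 21.1 in any of the 4 libraries, and Col1a1, Cd3d, Cd8a, Mpo, Cdh5, Tek and Flt3 were at 0 in all 4. The 4 replicate 2 libraries of the same days, which enter only where they are named, stood apart in composition, with 38.1% to 48.8% of reads on nuclear protein-coding genes and 8.15% to 13.97% on Malat1.

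A gene was tested when its normalized count averaged 10 or more in the 4 libraries. Of the 13544 such genes, 2292 rose (16.9% of genes tested) and 3127 fell (23.1%), together 40.0%, from day 3 to day 5 at an adjusted p under 0.05, by limma with the arm as a block and Benjamini-Hochberg adjustment. Every ± below is the standard error of a limma estimate, and rose, fell and called refer to this threshold. The shares of 16.9% and 23.1% are the background for each count of list members that rose or fell. Without adjustment 6621 genes had a p under 0.05. Of the 13544 genes tested, 798 passed and rose by at least 1 log2 unit (5.89%) and 335 passed and fell by as much (2.47%), together 8.37%. The changes of the arms had a Pearson correlation of 0.83 and a Spearman correlation of 0.78 over the 13544 genes, which share a library at each end of a change and are not independent, and 10904 genes (80.5%) moved the same way in both arms. The median change over all genes tested was -0.10. With median-of-ratios scaling in place of the authors' scaling, 2914 genes rose and 2375 fell, so the share of rises among called genes went from 42.3% to 55.1%, and 4666 genes were called in the same direction under both. With both replicates and a replicate block, 1027 genes rose and 401 fell, and without the block, over 12 libraries, limma called 0 genes, with 585 at an unadjusted p under 0.05. Without the filter on low values 639 genes rose and 403 fell, and the lists of DNA replication, mitosis, histones, glycolysis and hypoxia, mitochondrial genome, sterol synthesis and LXR described below then had 0 called members. The other lists kept fewer calls, among them 7 falls for resorption, 22 for oxidative phosphorylation and 8 for ribosomal proteins, and 6 rises for macrophage identity, 11 for the interferon response and 5 for the unfolded protein response.

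The best known genes of bone resorption fell in both arms. Acp5, the tartrate-resistant acid phosphatase used as an osteoclast stain, stood at 1068 in vehicle and 742 in treatment at day 3, and at 35.9 and 21.1 at day 5. Both day 5 libraries thus lay far under both day 3 libraries, 29.8-fold lower in vehicle and 35.2-fold lower in treatment, and the change was -4.65 ± 0.16 (SE, n = 2 arms; adjusted p = 9.56e-08). Ctsk, the collagen-degrading protease of the osteoclast, went from 2085 and 1866 to 299 and 281 (-2.73 ± 0.11, adjusted p = 1.82e-07). Atp6v0d2, a proton pump subunit that also takes part in fusion, went from 4612 and 3129 to 809 and 600.1 (-2.43 ± 0.10, adjusted p = 2.36e-07). The days did not overlap for any of these genes, and vehicle was above treatment at each day. Slc9b2, a sodium-proton exchanger of osteoclasts, fell by 3.30 ± 0.25, from 129 and 154 to 10.1 and 4.59.

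Of 19 resorption genes tested, 11 fell and 4 rose, beside 23.1% and 16.9% of all genes tested. The list's median change was -0.40, beside -0.10 over all genes. The falls included Src, the kinase needed for the ruffled border, which went from 770.4 and 703 to 236 and 217 (-1.67 ± 0.12). They also included the carbonic anhydrase Car2 (-1.05 ± 0.25), the chloride-bicarbonate exchanger Slc4a2 (-0.84 ± 0.11) and the osteoclast proton pump subunit Tcirg1 (-0.70 ± 0.10). Mmp9, the gelatinase, had a smaller change: it stood at 1143 and 995 at day 3 and at 663 and 798 at day 5, a fall of 0.55 ± 0.13 (adjusted p = 0.00701). The members that rose were the lysosomal phosphatase Acp2 (0.66 ± 0.12), the vesicle GTPase Rab3d (0.85 ± 0.13), Ostm1, partner of the lysosomal chloride transporter (0.51 ± 0.11), and the creatine kinase Ckb (0.35 ± 0.13). Under median-of-ratios scaling 8 rose and 10 fell. With replicate 2 added under a replicate block the changes of Ctsk (0.09) and Mmp9 (1.03) took the other sign and were not called. Calcr, Oscar and Itgb3 did not pass the filter on low values: Oscar was at most 1.56, and Itgb3 was at 0 in both day 3 libraries and at 5.52 and 24.8 at day 5.

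**Figure D1:**
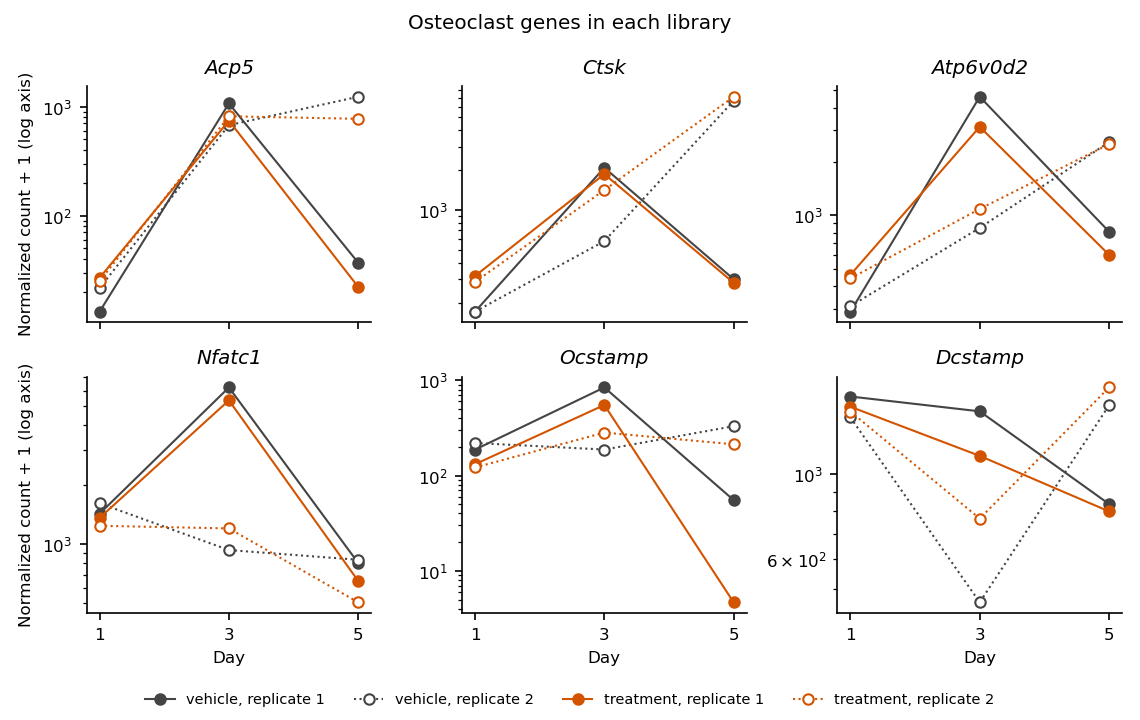
Normalized count plus 1 (log axis) of 6 osteoclast genes against day, for vehicle (grey) and treatment (orange), with replicate 1 as filled points and solid lines and replicate 2 as open points and dotted lines; each point is 1 library. In replicate 1 the level of each gene at day 5 lies below that at day 3 in both arms, while Ctsk and Atp6v0d2 of replicate 2 lie higher at day 5 than at day 3.

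The genes of cell fusion split. Of 12 tested, 5 fell and 5 rose, beside 23.1% and 16.9% of all genes tested. Ocstamp, a transmembrane protein required for fusion, went from 842 and 550.1 to 54.3 and 3.67 (-4.67 ± 0.32, adjusted p = 3.22e-06). The treatment arm had the lower day 5 value, and both days stayed apart. Its partner Dcstamp moved less, from 1462 and 1118 to 836 and 799 (-0.64 ± 0.12). Dock5, an exchange factor for Rac that organizes the osteoclast's adhesion ring, fell by 1.77 ± 0.10, and the tetraspanin-like Tm4sf19 fell by 0.69 ± 0.11. The rises were in genes with broader roles in adhesion and movement: the metalloprotease Adam8 (1.01 ± 0.11), the podosome scaffold Sh3pxd2a (0.82 ± 0.12), the filopodial myosin Myo10 (0.54 ± 0.10), Sirpa (0.49 ± 0.11) and Cd44 (0.40 ± 0.12).

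Several transcription factors that drive the osteoclast fell as well. Nfatc1 stood at 6224 in vehicle and 5354 in treatment at day 3 and at 799.6 and 648 at day 5, a change of -2.99 ± 0.10 (adjusted p = 9.56e-08). Its day 5 levels were also below those of day 1, which lay between 1236 and 1608. Among 25 tested genes of RANK signalling and osteoclast transcription, 11 fell and 3 rose, beside 23.1% and 16.9% of all genes tested. Prdm1 (Blimp1), which represses the inhibitors of the programme, went from 84.4 and 54.8 to 3.68 and 2.75 (-2.76 ± 0.26). The AP-1 family members Jdp2 (-2.74 ± 0.13), Fosl2 (-2.59 ± 0.13) and Fos (-1.10 ± 0.16) fell, whereas Jun rose by 1.52 ± 0.11 and Jund by 0.60 ± 0.13. Ppargc1b, a coactivator of mitochondrial genes, fell from 331 and 293 to 102 and 108 (adjusted p = 4.94e-05), and Mitf, a factor that acts at osteoclast promoters, fell by 0.92 ± 0.10. The receptor gene Tnfrsf11a itself went from 3365 and 3184 to 1889 and 1119 (-1.17 ± 0.14). The adaptor Traf6 (-0.09, adjusted p = 0.629) and the NF-kB subunits Rela (0.19, adjusted p = 0.283) and Nfkb1 (-0.19, adjusted p = 0.175) did not pass the test, while Nfkb2 fell by 0.50, mostly in treatment (-0.16 in vehicle and -0.85 in treatment, adjusted p of the difference = 0.00297), and Relb rose by 0.45.

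Factors that oppose the programme rose in part. Irf8 stood at 271 and 261 at day 3 and at 847 and 1185 at day 5 (1.88 ± 0.14, adjusted p = 6.08e-06). Of 13 negative regulators tested, 6 rose and 1 fell, beside 16.9% and 23.1% of all genes tested. Among the other rises were Id2 (1.60 ± 0.25), an inhibitor of helix-loop-helix factors, Notch1 (1.55 ± 0.25) and its nuclear partner Rbpj (1.23 ± 0.10), and the repressor Bcl6 (0.90 ± 0.11), while the calcineurin inhibitor Rcan1 fell by 0.64 ± 0.13. Among 18 genes of ITAM signalling and podosomes, the costimulatory branch of the RANK response, 8 rose and 3 fell. The share of falls was no higher than over all genes. Trem2 rose from 2061 and 1577 to 3963 and 2649.9 (0.84 ± 0.10). In the same list the ITAM adaptor Fcer1g (0.73 ± 0.10), the receptor Sirpb1a (1.68 ± 0.15) and the adhesion kinase Ptk2b (1.44 ± 0.10), rose too, and the adaptor Blnk (-0.62 ± 0.15), the kinase Btk (-0.45 ± 0.10) and the actin-severing Gsn (-0.53 ± 0.12) fell.

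Among the 15 largest falls, ranked by the smaller of the arms' changes, those outside the osteoclast lists included Mycl, a MYC family factor, which went from 266 in vehicle and 160.4 in treatment to 7.36 and 0 (-4.28 ± 0.22). Gja1, the gap junction protein connexin 43, went from 557 and 701 to 32.2 and 14.7 (-4.39 ± 0.24). Apod, a lipid-binding lipocalin, went from 153 and 153 to 3.68 and 2.75 (-3.84 ± 0.23). In each of these the days were well apart in both arms. Coq8a, which serves coenzyme Q synthesis (-3.52 ± 0.16), the aminoacylase Acy1 (-3.43 ± 0.21), the actin bundler Pls1 (-3.32 ± 0.25), the dehydrogenase Bdh2 (-2.56 ± 0.20) and the chemokine receptor Ccr3 (-3.12 ± 0.31) completed the set with Acp5, Ocstamp, Nfatc1, Slc9b2, Ctsk, Prdm1 and Jdp2. All 15 stood above the range of the 4 day 1 libraries in both day 3 libraries. At day 5, 8 of the 15 in vehicle and 10 in treatment lay below that range. These genes were picked for high levels at day 3 and much lower ones at day 5, which favours such counts in advance. The same counts over all genes are not given here.

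The 15 largest rises were led by Cmah, the enzyme that makes N-glycolylneuraminic acid, which went from 9.38 and 3.91 to 414 and 252 (4.53 ± 0.20, adjusted p = 2.95e-07). Aqp9, a channel for water and glycerol, went from 3.13 and 4.70 to 157 and 262 (4.15 ± 0.23). Both were under 10 in each day 3 library and far higher in each day 5 library. Spp1, osteopontin, an abundant secreted matrix protein, went from 11679 and 37328 to 100880 and 298079, which is 8.64-fold in vehicle and 7.99-fold in treatment (3.05 ± 0.14). Treatment was above vehicle at both days. Mmp12, macrophage elastase, went from 91.4 and 568 to 2591 and 5875 (4.03 ± 0.23), and Cd93, a surface lectin of myeloid cells, from 75.0 and 101 to 873 and 2155 (3.86 ± 0.19). Dusp6, the phosphatase that dampens ERK, rose by 3.52 ± 0.15. Trem3, a receptor of the TREM family, had 0 reads in both day 3 libraries and 61 and 143 reads at day 5. Set against a floor of 3 reads in each day 3 library, it was at least 23.9-fold higher in vehicle and at least 55.9-fold higher in treatment.

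The others of the 15 were Trib3, March1, Atp9a, Slpi, Fcgr1, Cd207, Soat2 and Gm4070, with changes from 2.95 to 3.80. March1, a ubiquitin ligase that lowers MHC class II at the surface, went from 32.8 and 29.7 to 547 and 351. Slpi, a secreted inhibitor of proteases, went from 3.91 and 39.1 to 136 and 406, with treatment above vehicle at both days. Cd207 (langerin) went from 4.69 and 16.4 to 86.5 and 187, and Soat2, which esterifies cholesterol, from 2.34 and 7.04 to 68.1 and 126. Gm4070 resembles the interferon-inducible GTPase gene Gvin1, and the authors' counting could split reads between them, so its change of 2.95 ± 0.11 is uncertain. At day 3, 14 of the 15 in vehicle and 12 in treatment lay below the range of the 4 day 1 libraries, and at day 5, 12 in vehicle and 15 in treatment lay above it. The choice of genes with low levels at day 3 and high ones at day 5 favours these counts too. Over all 13544 genes the root mean square difference between libraries was 0.62 from vehicle at day 5 to vehicle at day 3, and 0.51 and 0.52 to the vehicle libraries of day 1. For treatment it was 0.67 to day 3 and 0.50 to each day 1 library. In both arms the day 5 library was thus nearer to day 1 than to day 3. The day 3 library was nearer to day 1 still, at 0.48 and 0.46 in vehicle and at 0.46 to each day 1 library in treatment. Over all genes, day 5 was thus not nearer to day 1 than day 3 was.

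**Figure D2:**
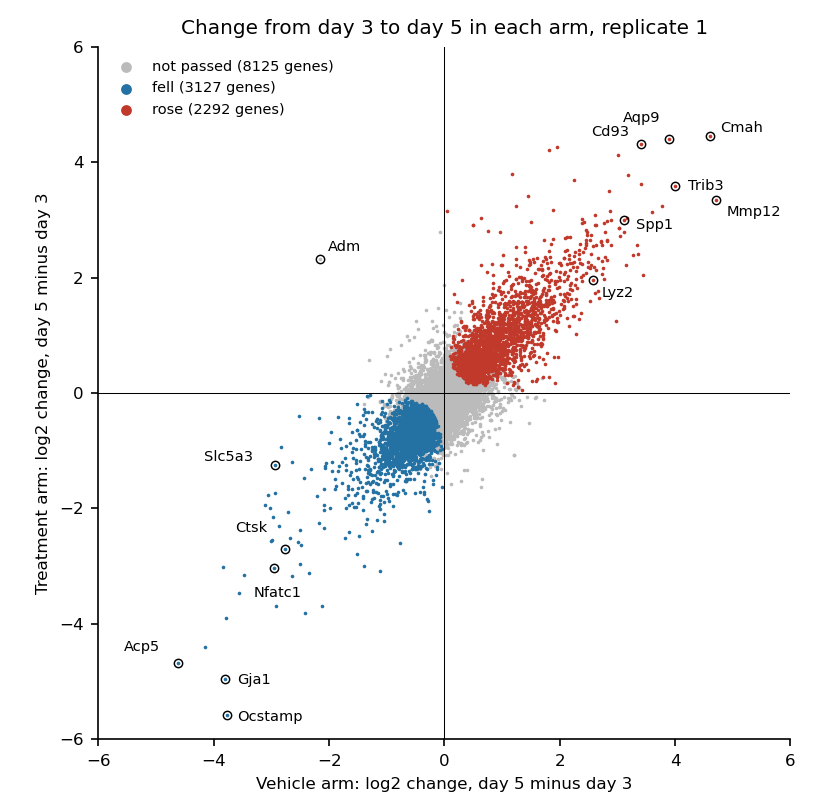
Change from day 3 to day 5 (log2 units) of each of 13544 genes in the vehicle arm (horizontal) and the treatment arm (vertical) of replicate 1, with genes that rose in red, genes that fell in blue and others in grey. The changes of the arms have a Pearson correlation of 0.83 over all genes, with Acp5, Ocstamp and Gja1 at the low end, Cmah, Aqp9 and Mmp12 at the high end, and Adm moving in opposite directions in the 2 arms.

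Most macrophage genes tested rose. Of 18 identity genes tested, 14 rose and 0 fell, by limma at an adjusted p under 0.05, and the list's median was 1.13. Fcgr1, the high-affinity IgG receptor, went from 19.5 and 47.0 to 239 and 444 (3.10 ± 0.18, adjusted p = 9.89e-07). Lyz2, lysozyme, went from 47777 and 70584 to 284656 and 273448 (2.26 ± 0.19). Cd14, the LPS co-receptor, went from 1973 and 3799 to 6795 and 10782 (1.64 ± 0.11). For all 3 genes both day 5 libraries were above both day 3 libraries. Fcgr3 (1.73), the scavenger receptor Msr1 (2.09), the integrin Itgam (1.15) and Adgre1, which encodes F4/80 (0.91), rose as well. Csf1r, the receptor for M-CSF, stood at 12746 and 12682 at day 3 and at 14087 and 14780.1 at day 5, and its change of 0.18 ± 0.11 did not pass the test (adjusted p = 0.215). Cd68 (0.21), Lgals3 (0.29) and Cd36 (0.12) did not pass either. Of the 10 macrophage markers 7 rose and 1 fell: Spi1, which encodes the myeloid factor PU.1, fell by 0.30 ± 0.11, and this was not called under median-of-ratios scaling (adjusted p = 0.142).

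Of 19 chemokine and cytokine receptors tested, 11 rose and 2 fell. The rises included Il13ra2, a decoy receptor for IL-13 (2.83 ± 0.18), Csf3r, the receptor for G-CSF (2.45 ± 0.22), Il10ra (1.71 ± 0.13), Ccr2 (1.46 ± 0.16) and Tgfbr2 (1.21 ± 0.10), and the falls were Ccr3 and Ccr1 (-1.88 ± 0.33). Of 12 matrix and protease genes, 6 rose and 1, Mmp9, fell. Plau, urokinase, went from 727 and 854 to 3737 and 5157 (2.47 ± 0.11), and its receptor Plaur rose by 2.47 ± 0.12. The other rises were Timp2, an inhibitor of metalloproteases (0.67 ± 0.13), and Adam8, Spp1 and Mmp12, given above. Of 4 Ms4a genes tested, 3 rose: Ms4a6d (1.32 ± 0.11), Ms4a7 (1.05 ± 0.32) and Ms4a6c (0.74 ± 0.19). The change of Ms4a7 was 1.92 in vehicle and 0.18 in treatment (adjusted p of the difference = 0.00799), and that of Ms4a6c was 1.27 and 0.22 (adjusted p of the difference = 0.000359), so the rise of both was mostly in vehicle. All 4 genes had a lower change in treatment than in vehicle. These differences rest on 1 library per arm and day with a spread taken from day 1, and with replicate 2 added limma called 0 genes. Runx2, the 1 osteoblast marker tested, went from 45.3 and 50.9 to 99.4 and 98.2 (0.93 ± 0.20), and of 2 dendritic markers tested Itgax rose by 1.26 ± 0.17, while Zbtb46 had a change of -0.73 (adjusted p = 0.0519).

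Inflammatory and interferon genes rose. Of 19 genes of the TLR and NF-kB response tested, 11 rose and 0 fell, with a median of 1.05. Ccl4, a chemokine for monocytes and T cells, went from 88.3 and 151 to 507 and 1235 (2.69 ± 0.16). Cxcl2, a neutrophil attractant, went from 14.8 and 105 to 144 and 662 (2.65 ± 0.17), with treatment above vehicle at both days. Ccl3 rose by 2.04 ± 0.14 and Tnf, from 159 and 279 to 471 and 848, by 1.55 ± 0.13. The inhibitor genes Nfkbia (-0.02, adjusted p = 0.902) and Tnfaip3 (0.08, adjusted p = 0.658) did not pass, and Il1b, Il1a, Il6 and Ccl7 were under the filter. Of 13 genes of MHC class I and antigen presentation, 11 rose and 0 fell (median 0.99). H2-K1, a class I heavy chain, went from 2143 and 2460.4 to 7108 and 7010.2 (1.62 ± 0.11). The light chain B2m (1.00), H2-D1 (1.44), the class II chaperone Cd74 (1.65) and the class I activator Nlrc5 (1.13) rose too.

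Of 31 genes of the interferon response tested, 26 rose and 0 fell, with a median of 0.87. Ifit1, which binds foreign RNA, went from 4.69 and 32.9 to 70.9 and 171 (2.38 ± 0.23, adjusted p = 2.81e-05). Isg15, a ubiquitin-like modifier, went from 10.9 and 61.0 to 91.1 and 256 (2.16 ± 0.21). In each arm day 5 was higher, and the treatment library lay above the vehicle library of the same day. Ifit2 (2.04), Ifit3 (1.91) and Parp14 (1.66) rose as well. These genes respond to the factor complex ISGF3 through a promoter element. The motif, GAAA, any 2 bases and GAAA again, searched on both strands in the 250 bases before each gene's start in RefSeq (build GRCm38.p6, where a window was at hand), was found in 10 of the 23 tested members with a window and in 3.33% of 9134 genes. The 10 included Oas3 and Gbp3, which did not pass the test. The windows of Ifit1 and Isg15 are printed here, 5′ to 3′ on the gene's strand, with matches that do not overlap in capitals. In Isg15 a further match overlaps both marked ones and takes in the 2 lower-case bases between them. Among the members that hold the motif, these had the smallest p by limma. Isg15 lies at chr4:156200819-156201068, minus strand, and Ifit1 at chr19:34640639-34640888, plus strand.
Isg15: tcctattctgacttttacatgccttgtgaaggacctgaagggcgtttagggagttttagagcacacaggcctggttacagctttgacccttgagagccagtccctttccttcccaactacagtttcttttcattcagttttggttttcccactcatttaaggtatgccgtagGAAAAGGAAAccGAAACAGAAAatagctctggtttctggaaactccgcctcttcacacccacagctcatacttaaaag
Ifit1: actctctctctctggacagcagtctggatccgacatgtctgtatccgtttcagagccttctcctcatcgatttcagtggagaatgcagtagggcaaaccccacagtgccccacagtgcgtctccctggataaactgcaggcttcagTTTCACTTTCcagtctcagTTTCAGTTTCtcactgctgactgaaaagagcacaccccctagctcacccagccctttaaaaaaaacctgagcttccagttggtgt

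Genes of protein folding in the endoplasmic reticulum and of amino acid supply rose together. Cells meet unfolded protein in that compartment with ATF6, XBP1 and PERK, and amino acid shortage with GCN2, and PERK and GCN2 both act through ATF4. Of 18 genes of the unfolded protein response tested, 16 rose and 0 fell (median 0.98). Hspa5, the chaperone BiP, went from 12918 and 14971 to 28685 and 47778 (1.41 ± 0.14, adjusted p = 3.92e-05). Herpud1 (1.75 ± 0.12), which serves the degradation of misfolded proteins, Hyou1 (1.52 ± 0.15), Sdf2l1 (1.46 ± 0.13) and Creld2 (1.31 ± 0.12) rose too. The abundant chaperones Hsp90b1 (0.86), Calr (0.91) and Pdia3 (0.87) rose, and Canx (0.17, adjusted p = 0.257) and Edem1 (0.05, adjusted p = 0.759) did not pass the test. In the integrated stress response, 19 of 24 genes rose and 2 fell (median 0.79). Trib3, a pseudokinase that ATF4 and CHOP induce, went from 17.2 and 44.6 to 397 and 626 (3.80 ± 0.18). Ddit3, which encodes CHOP, went from 98.5 and 145 to 697 and 739 (2.51 ± 0.15). Both had nonoverlapping days. Atf4 itself rose by 0.74 ± 0.11, Atf5 by 1.98 ± 0.18, Slc7a11, the cystine carrier, by 1.53 ± 0.13 and Pck2 by 1.63 ± 0.14. The falls were in serine synthesis and use, Psat1 (-0.42 ± 0.13) and Shmt2 (-0.38 ± 0.12), and under median-of-ratios scaling neither was called.

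The promoter windows of these lists hold known elements. The endoplasmic reticulum stress element, CCAAT and CCACG with any 9 bases between them, was found on either strand in 7 of the 16 unfolded protein response members with a RefSeq window, and in 0.142% of 9134 genes. The 7 included Canx, which did not pass the test. The amino acid response motif TGATGNAA was found in 6 of 23 members of the integrated stress response list with a window and in 2.43% of all genes. The motifs were chosen with the results known, a match is not a binding site, and no p was computed. A pair of windows for each motif is printed, again with matches in capitals. Creld2 lies at chr15:88819396-88819645 (plus strand), Hspa5 at chr2:34771840-34772089 (plus strand), Pck2 at chr14:55540016-55540265 (plus strand) and Slc7a11 at chr3:50443614-50443863 (minus strand).
Creld2: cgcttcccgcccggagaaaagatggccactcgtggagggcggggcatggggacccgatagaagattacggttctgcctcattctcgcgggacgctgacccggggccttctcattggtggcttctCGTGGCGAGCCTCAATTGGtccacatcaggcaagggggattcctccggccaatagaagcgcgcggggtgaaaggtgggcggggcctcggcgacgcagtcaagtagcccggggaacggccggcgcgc
Hspa5: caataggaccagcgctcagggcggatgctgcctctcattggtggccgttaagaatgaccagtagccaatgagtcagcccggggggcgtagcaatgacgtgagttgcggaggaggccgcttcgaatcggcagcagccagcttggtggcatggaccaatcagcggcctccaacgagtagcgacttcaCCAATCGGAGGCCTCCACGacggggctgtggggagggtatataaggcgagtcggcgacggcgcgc
Pck2: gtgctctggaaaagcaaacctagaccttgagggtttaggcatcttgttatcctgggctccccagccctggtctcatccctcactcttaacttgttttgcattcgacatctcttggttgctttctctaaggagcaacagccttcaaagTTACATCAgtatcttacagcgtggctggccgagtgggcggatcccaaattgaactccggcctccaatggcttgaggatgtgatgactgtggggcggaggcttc
Slc7a11: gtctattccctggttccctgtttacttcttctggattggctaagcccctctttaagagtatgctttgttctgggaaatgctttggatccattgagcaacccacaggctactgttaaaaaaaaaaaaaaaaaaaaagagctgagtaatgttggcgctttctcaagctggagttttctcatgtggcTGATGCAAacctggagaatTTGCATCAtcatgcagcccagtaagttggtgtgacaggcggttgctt

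Cytosolic and mitochondrial chaperones moved the opposite way to those of the endoplasmic reticulum: of 13 heat shock genes tested, 8 fell and 0 rose (median -0.47). Hsp90ab1, a constitutive HSP90, went from 32680.1 and 33382 to 17596 and 16580.4 (-0.95 ± 0.12). The mitochondrial pair Hspd1 (-0.89 ± 0.10) and Hspe1 (-0.79 ± 0.10) and the HSP70 partner Hsph1 (-0.88 ± 0.10) fell too, and Hspa8 (-0.20, adjusted p = 0.236) did not pass.

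Proliferation genes were lower at day 5. Of 28 genes of mitosis and G2/M, 20 fell and 0 rose (median -0.59), and of 32 genes of DNA replication and G1/S, 20 fell and 1 rose (median -0.48), and neither list had a called member without the filter on low values. Ccnb1, cyclin B1, went from 1428 and 1353 to 819.9 and 538 (-1.06 ± 0.13, adjusted p = 0.000167). Cdc20, which triggers anaphase, went from 800.1 and 819 to 524 and 286 (-1.05 ± 0.18). The treatment library had the lower day 5 value of both genes. Aurka (-1.01 ± 0.15), the centromere histone Cenpa (-0.99 ± 0.15) and Mki67, the Ki-67 antigen (-0.55 ± 0.13), fell as well. Among replication genes Mcm7, a subunit of the helicase, went from 1409 and 1637 to 979 and 784 (-0.79 ± 0.13). Mcm10 (-0.83 ± 0.15), Cdt1 (-0.73 ± 0.12) and Chaf1a (-0.65 ± 0.12) fell, and E2f2 alone rose, by 0.47 ± 0.17 (adjusted p = 0.0469). Of 31 replication-dependent histone genes only 12 passed the filter, with 4 falls and 1 rise, beside 23.1% and 16.9% of all genes tested. The median change of the 12 was -0.02 in vehicle and -1.11 in treatment. The falls, Hist1h2ae (-1.08), Hist1h2ac (-1.07), Hist1h2ab (-1.06) and Hist2h2be (-1.03), belong to a family of near-identical copies, between which the authors' counting could split reads, and are uncertain. The 3 Hist1h2a genes fell mostly in treatment, with changes between -1.88 and -1.76 there and between -0.35 and -0.29 in vehicle.

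Some inhibitors of the cell cycle and of cell death rose. Of 22 tested cell cycle inhibitors and p53 targets, 11 rose and 3 fell, where 16.9% of all genes tested rose and 23.1% fell. Gadd45a, a stress-induced growth arrest gene, went from 18.8 and 32.1 to 212 and 256 (2.88 ± 0.19). Cdkn1a, which encodes p21, went from 2279 and 1839 to 4411 and 3458 (0.93 ± 0.10). Plk2 (1.89 ± 0.13) and Sesn2 (1.85 ± 0.19) rose, and Pmaip1 (-0.47 ± 0.12), Aen (-0.45 ± 0.11) and Cdkn1b, which encodes p27 (-0.35 ± 0.12), fell. Of 12 BCL2 family genes, 5 rose and 2 fell, beside 16.9% and 23.1% of all genes tested. The survival gene Bcl2 went from 189.9 and 255 to 952 and 1131 (2.20 ± 0.12), and Bcl2l1, which encodes BCL-XL, from 259 and 299.7 to 1067 and 1462 (2.13 ± 0.12). The rises were all in survival members. Beside Bcl2 and Bcl2l1 they were the near-identical copies Bcl2a1a, Bcl2a1b and Bcl2a1d, between which the authors' counting could split reads. Both falls were in death-promoting members, Bmf (-1.52 ± 0.17) and Bid (-0.38 ± 0.11), a share of falls no higher than over all genes. Under median-of-ratios scaling Bid (adjusted p = 0.0535) and Cdkn1b (adjusted p = 0.118) were not called.

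Genes of respiration and of protein synthesis fell by smaller steps. Of 31 nuclear genes of oxidative phosphorylation, 29 fell and 0 rose (median -0.73). Ndufa4 went from 1600.2 and 1426 to 823 and 591 (-1.11 ± 0.12, adjusted p = 4.86e-05). Cyc1, cytochrome c1 of complex III, fell from 1496 and 1294 to 719 and 662 (adjusted p = 5.60e-05). Atp5g3 of the ATP synthase (-1.05 ± 0.10) and Uqcrc2 of complex III (-0.92 ± 0.10) fell, and Cox5a (-0.24, adjusted p = 0.0874) and Ndufa2 (-0.08, adjusted p = 0.647) did not pass. Of 13 genes of the mitochondrial genome, which share reads with nuclear copies, 7 fell and 1, mt-Atp8, rose (median -0.46). mt-Nd1 went from 23922 and 26057 to 13987 and 11256 (-0.99 ± 0.13). The rise of mt-Atp8 was not called under median-of-ratios or quantile scaling. Of 38 cytosolic ribosomal protein genes, 37 fell and 0 rose (median -0.58), and 32 fell under median-of-ratios scaling. Rps2 (-0.91 ± 0.11), Rpl8 (-0.87 ± 0.10), Rpsa (-0.83 ± 0.11) and Rps16 (-0.76 ± 0.10) had the smallest p, and Rpl23 (-0.29, adjusted p = 0.0582) was the member that did not pass. The factor MYC drives ribosome production, and of 18 genes of MYC and ribosome biogenesis 15 fell and 1 rose (median -0.75). Myc went from 2672 and 3097 to 929 and 443 (-2.15 ± 0.22). The nucleolar genes Dkc1 (-1.21 ± 0.11) and Npm1 (-1.07 ± 0.12) fell, and Odc1, the first enzyme of polyamine synthesis, rose by 1.30 ± 0.13.

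Glycolysis and hypoxia genes did not move as 1 group: 7 of 25 rose, 2 fell and 16 did not pass. Beside the counts of this and the next lists, 16.9% of all genes tested rose and 23.1% fell. Vegfa (1.22 ± 0.19), Ndrg1 (1.11 ± 0.14), Pfkfb3 (1.03 ± 0.18) and the glucose carrier Slc2a1 (0.89 ± 0.16) rose, while the enzymes Ldha (-0.63 ± 0.14) and Eno1 (-0.62 ± 0.14) fell, more so in vehicle. In the oxidative stress list 5 of 17 rose and 7 fell. Fth1, ferritin heavy chain, went from 16172 and 25409 to 43842 and 76526 (1.51 ± 0.13), and metallothionein Mt1 (-0.95 ± 0.11) and thioredoxin reductase Txnrd1 (-0.73 ± 0.11) fell. Of 5 nuclear long noncoding RNAs tested, Kcnq1ot1 (-1.57 ± 0.12), Gas5 (-0.90 ± 0.10) and Malat1 (-0.47 ± 0.14) fell and Neat1 (0.55 ± 0.12) rose, and the fall of Malat1 was not called under median-of-ratios scaling (adjusted p = 0.123). Of 18 immediate early genes, 7 rose and 4 fell: beside Dusp6, Jun, Fos and Myc above, Egr1 (1.85 ± 0.24) and Atf3 (1.14 ± 0.12) rose and Egr2 (-0.78 ± 0.14) fell.

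Lysosomal and proton pump genes parted. Of 25 lysosome genes tested, 15 rose and 1 fell (median 0.38). The cathepsin gene Ctsl went from 3398 and 5618 to 9435 and 15034 (1.44 ± 0.10). Ctsd (1.24 ± 0.12), Ctsb (1.23 ± 0.13) and the hexosaminidase Hexa (0.88 ± 0.10) rose with it, and Cd63 fell by 0.40 ± 0.11, which was not called under median-of-ratios scaling. Of 17 V-ATPase genes, 9 fell and 1 rose (median -0.30). Next to Atp6v0d2 and Tcirg1, Atp6v1b2 (-0.87 ± 0.10) and Atp6v0e (-0.84 ± 0.10) fell. Atp6v0a1, which encodes another form of the subunit made by Tcirg1, went from 488 and 422 to 1000.2 and 827 (0.99 ± 0.11). Of 23 genes of sterol and fatty acid synthesis, 14 fell and 3 rose (median -0.42), with falls in Mvd (-0.75 ± 0.13), Scd2 (-0.74 ± 0.12), Hmgcs1 (-0.70 ± 0.11) and Cyp51 (-0.62 ± 0.11). Of 8 genes of LXR and cholesterol efflux, Abca1 (1.12 ± 0.17) and Mylip (0.67 ± 0.14) rose and Pltp (-0.75 ± 0.18) and Apoe (-0.68 ± 0.25) fell. The list's median was 0.02. With 16.9% of all genes tested rising and 23.1% falling, these counts do not set the list apart. The fall of Apoe was not called under median-of-ratios scaling (adjusted p = 0.0704), and Pltp fell mostly in treatment (-0.27 in vehicle and -1.24 in treatment, adjusted p of the difference = 6.90e-05).

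**Figure D3:**
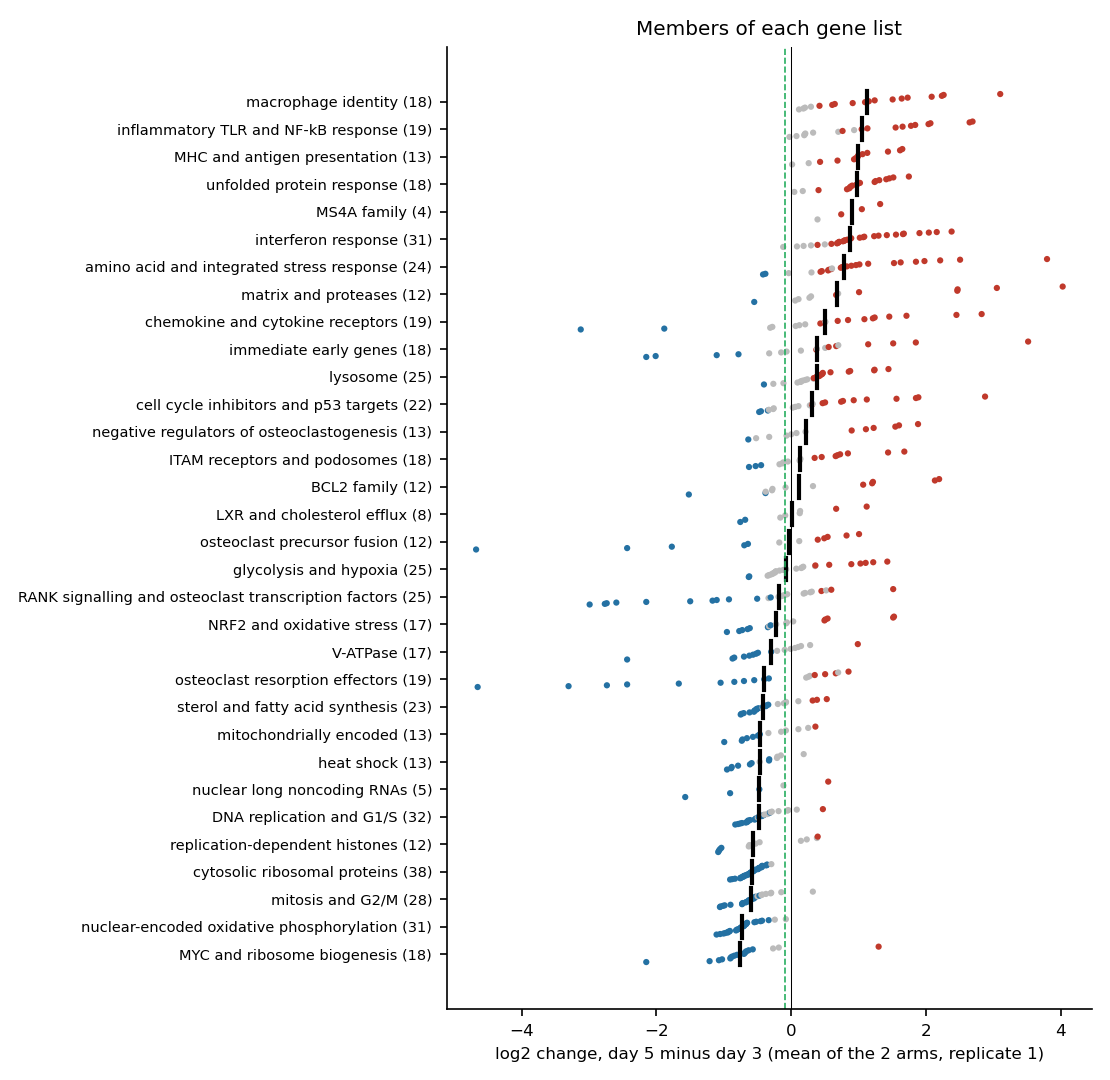
Change from day 3 to day 5 (log2 units, mean of both arms of replicate 1) of every tested member of each gene list, with the number tested in brackets; members that rose are red, those that fell blue and the others grey, the black bar is the list's median and the dashed green line the median over all genes tested (-0.10). Medians run from -0.75 for MYC and ribosome biogenesis to 1.13 for macrophage identity, and the osteoclast lists have long tails to the left.

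The arms were then compared in their change, treatment minus vehicle. With 1 library per arm and day this difference has no spread of its own, and that of the day 1 replicates was used for it. The root mean square difference between day 1 replicates was 0.20 in vehicle and 0.19 in treatment. Between the replicates of days 3 and 5, which also differ in composition, it was 1.45 to 2.00. The borrowed spread may thus be too small for those days, and the adjusted p with it. Of 13544 genes, 231 had a higher change in treatment (1.71%) and 422 a lower one (3.12%), together 4.82%, and after quantile scaling 234 had a higher and 281 a lower one. Of 28 mitosis genes 24 had a lower change in treatment and 0 a higher one, with a median change of -0.24 in vehicle and -0.97 in treatment. For Cdc20 the difference was -0.89 ± 0.14 (adjusted p = 0.000957) and for Bub1b, a checkpoint kinase, -0.80 ± 0.12 (adjusted p = 0.000588). Of 32 replication genes 12 were lower in treatment and 0 higher. In the other direction, 17 of 25 glycolysis and hypoxia genes had a higher change in treatment and 0 a lower one, among them Slc2a1 (0.78 ± 0.13) and Vegfa (0.85 ± 0.18). Of 18 unfolded protein response genes 8 were higher and 0 lower, Hspa5 (0.52 ± 0.12) and Calr (0.55 ± 0.12) among them. With quantile scaling these counts were 20 and 9 for mitosis and replication, 14 for glycolysis and hypoxia and 6 for the unfolded protein response. With replicate 2 added, limma called 0 genes, with a replicate block by day (473 at an unadjusted p under 0.05) or without it (9).

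Some single genes differed more between the arms. Adm, the vasodilator peptide adrenomedullin, went from 48.4 to 4.60 in vehicle and from 16.4 to 114 in treatment, a difference of 4.48 ± 0.36 (adjusted p = 7.90e-07). The arms thus moved in opposite directions, and the vehicle value at day 5 rests on 5 reads. Spink5, a protease inhibitor, went from 577 to 463 in vehicle and from 1019.7 to 2778 in treatment (1.75 ± 0.13, adjusted p = 4.83e-07). Slc6a12, a carrier of betaine, went from 1085 to 182 in vehicle and from 1265 to 958 in treatment (2.13 ± 0.21). Slc5a3, a carrier of myo-inositol and thus of another organic osmolyte, went from 2697 to 346 in vehicle and from 2153 to 901 in treatment (1.68 ± 0.18). Both carriers fell less in treatment. Aldh1l2, an enzyme of mitochondrial folate, went from 39.9 to 178 in vehicle and from 44.6 to 1010.2 in treatment (2.32 ± 0.24), and Zfhx4, a zinc finger factor, differed by 1.30 ± 0.12. In the other direction C3, the central complement protein, went from 246 to 1980.2 in vehicle and from 929.7 to 2210.4 in treatment (-1.73 ± 0.14), so that the arms were closer at day 5 than at day 3. Myc fell further in treatment (-1.27 ± 0.12). Gda (-1.35 ± 0.13), Ppp1r12b (-1.12 ± 0.12), Fgr (-1.30 ± 0.14) and Tmem176b (-1.21 ± 0.13) had the next smallest p. For Ctsk (0.07, adjusted p = 0.875) and Acp5 (-0.07, adjusted p = 0.947) the difference between arms did not pass, and for Ocstamp it was -1.81 ± 0.26 (adjusted p = 0.000325).

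**Figure D4:**
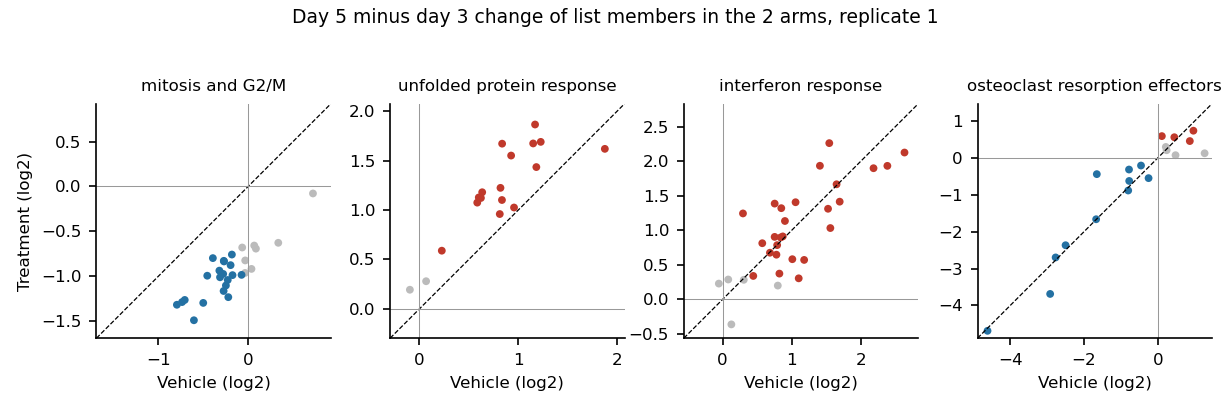
Change from day 3 to day 5 (log2 units) in the vehicle arm (horizontal) and the treatment arm (vertical) for the tested members of 4 gene lists in replicate 1, coloured by the test over both arms (red rose, blue fell, grey not passed), with the dashed line marking equal change. Every mitosis gene lies below the line and 17 of 18 unfolded protein response genes lie above it, while interferon genes scatter on both sides.

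Replicate 2 of the same days gave another picture for the osteoclast genes. The change of replicate 1 minus that of replicate 2 was higher in 705 genes (5.21%) and lower in 2080 (15.4%), together 20.6%, by limma over 8 libraries with replicate and arm as block. The median of this difference over all genes was -0.30, and -0.08 after quantile scaling, where 813 were higher and 973 lower. Without the filter on low values limma called 0 genes (5379 at an unadjusted p under 0.05), and with no replicate block 36. The differences given here for osteoclast genes were larger than that shift. Ctsk of replicate 2 stood at 581 in vehicle and 1414 in treatment at day 3 and at 6680.1 and 7164 at day 5, and the difference was -5.65 ± 0.31 (adjusted p = 1.76e-05). Acp5 stood at 675 and 814 and then at 1231 and 771 (-5.04 ± 0.30, adjusted p = 2.44e-05). In replicate 2 alone the change of Ctsk was 2.92 ± 0.22 (adjusted p = 2.22e-06), opposite to replicate 1, and that of Acp5 was 0.39 ± 0.21 (adjusted p = 0.197). In replicate 2 alone 13 of 19 resorption genes rose, where 17.2% of all genes rose and 6.91% fell. Atp6v0d2 (-3.83 ± 0.20), Ocstamp (-4.87 ± 0.54), Mmp9 (-3.16 ± 0.24), Dcstamp (-2.06 ± 0.23), Coq8a (-3.66 ± 0.27) and the lectin Clec4a2 (-2.86 ± 0.20) differed in the same direction. Nfatc1 stood at 930.4 and 1198 at day 3 in replicate 2, under its level in replicate 1, and fell in both replicates, by 2.99 in replicate 1 and 0.70 in replicate 2 (-2.29 ± 0.29).

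By list, 11 of 19 resorption genes, 14 of 17 V-ATPase genes and 29 of 31 nuclear genes of oxidative phosphorylation had a lower change in replicate 1, and 10, 11 and 22 of them after quantile scaling. Of 38 ribosomal protein genes 28 were lower, and 23 after quantile scaling. Upward, 15 of 31 interferon genes had a higher change in replicate 1 (13 after quantile scaling), as had 9 of 18 unfolded protein response genes (12) and 7 of 28 mitosis genes (5). Ifit1 stood at 1.47 and 6.30 at day 3 in replicate 2 and at 5.65 and 0 at day 5. Genes entered this test by their counts in replicate 1 alone, and the offset of 8 leaves low counts little room to change. For genes as low as Ifit1 in replicate 2, a smaller change there was thus largely set in advance. The median change of macrophage identity genes was 1.13 in replicate 1 and 1.04 in replicate 2, beside -0.10 and 0.24 over all genes tested. Of the 18 members, 5 had a higher and 4 a lower change in replicate 1. Mki67 fell in both, by 0.55 in replicate 1 and 1.82 in replicate 2 (1.27 ± 0.35). Among single genes Cmah (4.10 ± 0.36), 1700006J14Rik (3.08 ± 0.23), Dst (2.66 ± 0.23), Gm8995 (2.51 ± 0.22) and Ifi211 (2.44 ± 0.21) were higher in replicate 1 with the smallest p. The replicates differed in library composition at both days, and its part in these differences was not tested.

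**Figure D5:**
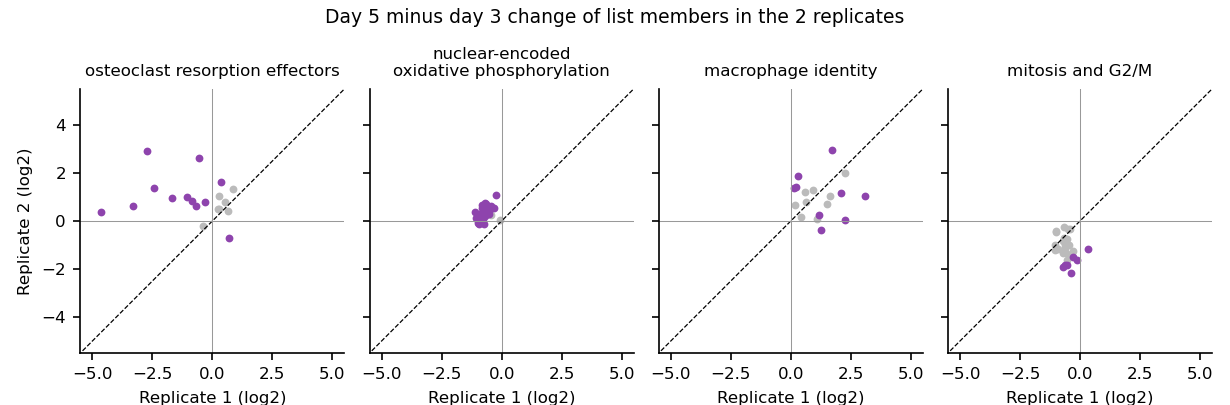
Change from day 3 to day 5 (log2 units, mean of both arms) in replicate 1 (horizontal) and replicate 2 (vertical) for the tested members of 4 gene lists, with members whose change differed between replicates (adjusted p under 0.05) in purple, others in grey, and the dashed line marking equal change. Resorption genes such as Ctsk and Acp5 lie in the upper left, macrophage genes lie above 0 on the horizontal axis, and mitosis genes lie below 0 in replicate 2.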

How the data were processed

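RNA-seq was measured in 12 libraries (2 arms, 3 days, replicates 1 and 2), of which the 4 of days 3 and 5 labelled replicate 1 are reported. The deposited table holds log2 values that the authors made from counts, and per the submitters' processing notes TopHat2, SAMtools, DESeq2 and the mm9 build were used. The values are whole reads divided by size factors plus an offset of 8 before the log2, since 100% of values gave whole reads within 0.02 of a read, and the size factors follow each library's total reads. Of 24757 rows, 993 were repeats with equal values and were dropped, which left 23764 Ensembl identifiers, and 23414 had a symbol. A second identifier column disagreed with the first in 24708 rows and was not used.

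Genes whose normalized count averaged 10 or more in the 4 libraries were fitted with limma 3.58.1 in R 4.3.3 (trended prior, arm as block, 1 residual degree of freedom), with Benjamini-Hochberg adjustment at 0.05. On simulated data of 13544 genes for this comparison, 83 of 100 genes changed by 1 log2 unit and 99 of 100 changed by 2 log2 units were recovered, with 16 false calls. All other genes were left unchanged, directions were balanced and no shift in composition was simulated, whereas 40.0% of genes were called in the data. The simulation therefore does not give the rate of false calls in the data. The difference between arms was fitted over 8 libraries including day 1, whose replicates give the spread that each lone library is assumed to share. The difference between replicates was fitted over the 8 libraries of days 3 and 5, for the genes that passed the filter in the replicate 1 libraries.

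The comparison reported, 32 gene lists and 10 marker lists were chosen with earlier results of these data known, and libraries enter by their labels. Genes were named by rule: the 15 largest rises and falls by the smaller of the arms' changes, with a normalized count of at least 50 in both libraries of the higher day; up to 4 members of each list with the smallest p; for each difference the 6 smallest p in each direction; and a fixed set of osteoclast and macrophage genes. Other genes named were chosen after their values were seen. Not every gene of the fixed set is reported here. Replicate numbers were checked for pairing: deviations of same-numbered libraries correlated at 0.74 to 0.92 among the groups of days 3 and 5, at 0.14 within day 1 and at 0.02 to 0.12 between day 1 and the later days. The replicate 2 libraries of days 3 and 5 share a composition that sets them apart from replicate 1. That alone makes such deviations correlate, so the check cannot show whether same-numbered libraries are pairs. Alternatives changed the offset, the scaling, the filter, the model (limma-voom on recovered reads), the libraries and the block. Promoter windows are RefSeq sequence of GRCm38.p6, not of mm9, and were matched by symbol.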

Additional observations from a re-analysis of the deposited data

Results flagged for a closer look

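The change from day 3 to day 5 differed between the arms in 653 genes and between the replicates in 2785 genes, each by a limma test of the difference itself. Treatment minus vehicle was 4.48 for Adm, 2.32 for Aldh1l2, 2.13 for Slc6a12, 1.75 for Spink5, 1.68 for Slc5a3 and 1.30 for Zfhx4. It was -1.73 for C3, -1.35 for Gda, -1.30 for Fgr, -1.27 for Myc, -1.21 for Tmem176b and -1.12 for Ppp1r12b. These values rest on 1 library per arm and day.

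Replicate 1 minus replicate 2 was -5.65 for Ctsk, -5.04 for Acp5, -4.87 for Ocstamp, -3.83 for Atp6v0d2, -3.66 for Coq8a, -3.16 for Mmp9, -2.86 for Clec4a2, -2.29 for Nfatc1 and -2.06 for Dcstamp. It was 4.10 for Cmah, 3.08 for 1700006J14Rik, 2.66 for Dst, 2.51 for Gm8995, 2.44 for Ifi211 and 1.27 for Mki67. In the libraries of days 3 and 5, mitochondrial reads were 3.64% to 5.38% in replicate 1 and 25.7% to 30.6% in replicate 2, and their part in these differences was not tested.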

How the results depend on the processing

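With limma-voom on recovered reads 232 of 234 single-gene results kept their direction and side of the threshold, with an offset of 1 254 of 257, with quantile normalization 242 of 257, and with median-of-ratios scaling, chosen after seeing the data, 218 of 234. Without a filter on low values 639 genes rose and 403 fell, 1690 differed between the arms, and 0 differed between the replicates by limma (5379 at an unadjusted p under 0.05). With the spread taken from day 1 replicates 4793 genes fell. Over 12 libraries with both replicates and no block 0 genes rose, 0 fell (585 at an unadjusted p under 0.05) and 0 differed between the arms (9). With the replicate block 1027 rose and 401 fell over 8 libraries, 127 of 234 single-gene results were kept, and with a block by day 0 differed between the arms (473). The difference between replicates was called in 1786 genes after quantile normalization and in 36 with no replicate block. The cause of these shifts was not tested.

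With both replicates in the contrast the change took the other sign, with the same value with or without the replicate block, for Ctsk (0.093), Mmp9 (1.03), Dcstamp (0.39), E2f2 (-0.53), Pmaip1 (0.29), Cdkn1b (0.14), Bid (0.16), Cox5a (0.41), Rpl23 (0.22), Canx (-0.24), Cd63 (0.35), Egr2 (0.56), Ifi211 (-0.060), Hspa8 (0.14), Traf6 (0.33) and Oas3 (-0.21). Under median-of-ratios scaling it did so for Ndufa2 (0.020), Nfkbia (0.075) and Traf6 (0.010), and after quantile normalization for Nfkbia (0.0020). In the vehicle arm alone the change was -2.16 for Adm, -0.31 for Spink5, -0.10 for Edem1, 0.13 for Gbp3 and 0.28 for Nfkbia. In the treatment arm alone it was -0.29 for Cd36, -0.0097 for Rela, -0.079 for Tmem176b and 0.11 for Traf6. Adm also took the other sign with an offset of 1 (-0.21) or 0.5 (-0.25).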
